A study of Arabidopsis thaliana with 7 samples.

Results

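The genes described here had higher signals in Arabidopsis thaliana rosettes that lacked both WRKY18 and WRKY40 than in rosettes that lacked either one alone or neither, after the same bacterial treatment. They were chosen by their values. Among non-control probe sets, with signals below 22 set to 22, a member had a signal on the double mutant array at least 2 times that on each of the Col-0, wrky18 and wrky40 arrays after Pst. Its ratio of Col-0 MgCl2 to Col-0 Pst also had to lie between 0.5 and 2. This selected 60 of 22746 probe sets, 0.264% of them. A probe set is the group of short DNA probes by which the array reads a transcript. Only 18 members (30%) had 1 named gene in the annotation used here, against 59.4% of non-control probe sets. The other 42 are unnamed here and are given by probe set identifier.

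The tested plants were a WRKY18/40 T-DNA double knockout (wrky18 wrky40), T-DNA knockouts of WRKY18, WRKY40, WRKY53 and WRKY60, and wild-type Col-0, all after Pst-DC3000, a strain of the leaf pathogen Pseudomonas syringae. A further Col-0 sample after MgCl2 was the mock treatment, and no mutant had a mock array. All plants were 14 days old, and entire rosettes were taken. All grew at 70% humidity, with 10 hours of light at 22 degrees and 14 hours of darkness at 19 degrees, in substrate treated with the insecticide imidacloprid, which the mock plants therefore shared. The insertion sites, the number of lines behind each genotype, any pooling of plants and the time from treatment to harvest are not given in the sources used here.

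Each of the 7 groups had 1 array, so no value has a replicate error and none of the differences was tested. All folds are between single arrays. In whole rosettes, more RNA per cell and more cells of one type cannot be told apart. Neither WRKY18 nor WRKY40 could be matched to a named probe set, so the double mutant label was not checked on its own transcripts. The WRKY53 transcript read 3.07 in wrky53, against 107 in Col-0 after Pst. The 3 rosette photosynthesis genes with a named probe set, PRK, SBPASE and RCA, had signals of 962 to 5865 across the arrays. None of 13 root and flower marker genes had one, so other organs were not checked. The wrky60 array stood apart: the median fold of its bacterial control probe sets over the Col-0 Pst array was 6.95, against 0.686 to 1.24 for the other arrays, and 32.9% of its probe sets lay below the floor, against 40.3% to 41.5% elsewhere. The rule did not use the wrky53 or wrky60 arrays.

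WRKY proteins are plant transcription factors that bind the W-box, a short DNA element common in the promoters of defence genes. WRKY18, WRKY40 and WRKY60 form the small group II-a, whose proteins bind one another and share functions in part. In Arabidopsis they are known to restrain parts of the basal defence against biotrophic pathogens, and mutants of WRKY18 and WRKY40 together have stronger effects than single mutants. This is background and was not examined by the arrays.

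On the double mutant array the 60 members had signals from 48.3 to 916, with a median of 99.4. Their medians were 38.3 for wrky18, 33.2 for wrky40 and 32.9 for Col-0 Pst. The median of all non-control probe sets lay between 35.1 and 37.7 on these 4 arrays. Single members differed widely around these medians, and several had no measurable signal. Signals lay below the floor for 18 members (30.0%) in wrky18, 10 (16.7%) in wrky40 and 18 (30.0%) in Col-0 Pst. The shares of all probe sets were larger, at 41.5%, 40.3% and 41.2%. For 10 members all 3 were below it, and for 6 every array but that of the double mutant was, so that these 6 were measured through that array alone. A ratio against a signal below the floor is given as at least that fold.

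The ratio of the double mutant signal to the highest of the 3 comparators ran from 2.01 to 4.95, with a median of 2.41, and 34 of the 60 lay below 2.5. Against Col-0 Pst alone the median log2 ratio of the members was 1.60, and 0.00 over all probe sets. On that comparison 217 probe sets (0.954%) were at least 2-fold higher in the double mutant and 32 (0.141%) at least 2-fold lower. All 60 members are among the higher ones because the rule requires it. The same rule turned to lower signals selected 0 probe sets. Because of the floor, that version needs all 3 comparators to reach 2 times the floor, where the member rule needs only the double mutant to do so. The 0 and the 60 are therefore not like counts. With the wrky53 array in place of the double mutant array the member rule selected 6 (0.0264%), and with the wrky60 array 958 (4.21%).

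**Figure D1:**
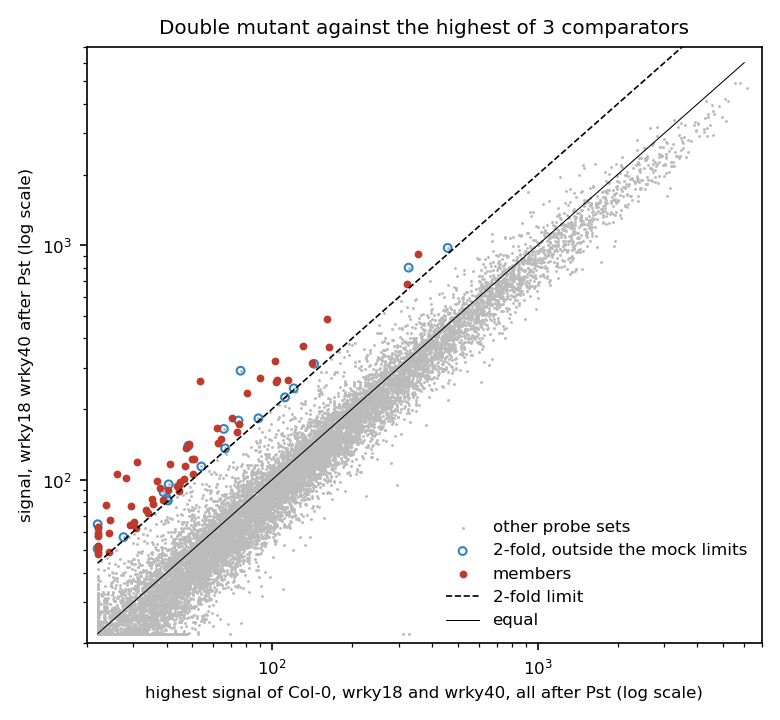
Each point is a non-control probe set, with the signal on the double mutant array on the vertical axis and the highest signal of the Col-0, wrky18 and wrky40 arrays after Pst on the horizontal axis, both on log scales and floored at 22. The 60 members (red) lie on or above the dashed 2-fold line by rule, most of them at low signal and close to it, and 19 further probe sets (blue rings) pass the fold limit but not the mock limits.

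Members just inside the limit were 266995_at, with a ratio of 2.01, 251428_at and 259428_at, both 2.02, and 264867_at, 2.098. The named genes just outside it were AT1G77890 at 1.98, AT5G60800 at 1.97, and AT3G55470 and AT1G72920, both at 1.93. Of 79 probe sets (0.347%) past the fold limit, the mock limits removed 19. In 16 of them Col-0 MgCl2 was at least 2 times Col-0 Pst, and in 3 at most 0.5 times. The nearest removed was AT5G52760, a ratio of at least 2.104, and the nearest kept was 267546_at, a ratio of 1.97.

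The named members are described by what each is known for, an order that was chosen after the members were known and tests no theme. AT1G57630 encodes a protein with a TIR domain, the signalling module of one class of plant immune receptors. It had a signal of 141 on the double mutant array, against 48.5 on wrky18, 28.8 on wrky40 and 42.7 on Col-0 Pst. It had 25.1 on wrky53, 41.0 on wrky60 and 75.03 on Col-0 MgCl2, so the mock array was the next highest. AT5G39670 encodes a calcium-binding EF-hand protein of the calmodulin-like kind. Its signal was 137 on the double mutant array, against 47.2 on wrky18, 40.2 on wrky40 and 37.1 on Col-0 Pst, with 50.2 on wrky53, 55.7 on wrky60 and 66.6 on Col-0 MgCl2. Against the highest of the 3 comparators the folds were 2.91 for AT1G57630 and 2.90 for AT5G39670.

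AT4G37290 encodes the precursor of a small secreted peptide of the kind induced by microbial patterns, which amplifies immune responses. It was measured only on the double mutant array, at 62.8. The other arrays read 3.89 on wrky18, 4.66 on wrky40, 7.10 on wrky53, 1.78 on wrky60, 2.62 on Col-0 Pst and 4.70 on Col-0 MgCl2. The double mutant was therefore at least 2.86-fold higher than each of them.

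Prx37, a class III peroxidase, had the highest signals of the 18: 682 on the double mutant array, against 298 on wrky18, 323 on wrky40 and 221 on Col-0 Pst. It read 157 on wrky53, 242 on wrky60 and 152 on Col-0 MgCl2. Both single mutants thus lay above Col-0 Pst for this gene, and the double mutant 2.11-fold above the higher of them. OSM34 is an osmotin, a thaumatin-like protein of the same family as the pathogenesis-related protein PR5. It had 49.1 on the double mutant array and 6.39 or less on every other array, so it was at least 2.23-fold higher.

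AT3G13650, of the dirigent family that guides the coupling of phenolic radicals, had 123 on the double mutant array. It had 47.0 on wrky18, 50.0 on wrky40 and 38.9 on Col-0 Pst, and 39.1 on wrky53, 38.0 on wrky60 and 30.3 on Col-0 MgCl2. The 6 other arrays lay close together, and the double mutant was 2.45-fold above the highest. CCOAMT, a caffeoyl-CoA O-methyltransferase gene of phenylpropanoid metabolism, had 66.1 on the double mutant array. Its signals were 27.8 on wrky18, 30.3 on wrky40, 27.5 on Col-0 Pst, 15.2 on wrky53, 44.2 on wrky60 and 38.6 on Col-0 MgCl2. It was 2.19-fold above the highest of the 3 comparators but within 2-fold of wrky60 and of the mock.

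UGT73B4, a UDP-glycosyltransferase that attaches sugars to small molecules, had 82.7 on the double mutant array, against 20.7 on wrky18, 35.3 on wrky40 and 28.8 on Col-0 Pst. The remaining arrays read 19.3 on wrky53, 8.92 on wrky60 and 34.2 on Col-0 MgCl2. AT1G64710, an alcohol dehydrogenase family gene, had 266 on the double mutant array, against 104 on wrky18, 74.7 on wrky40 and 64.2 on Col-0 Pst. It read 61.9 on wrky53, 23.0 on wrky60 and 77.5 on Col-0 MgCl2, and wrky18 was thus the next highest. AT5G38900, of the thioredoxin superfamily, had 90.5 on the double mutant array, against 40.4 on wrky18, 38.4 on wrky40 and 32.2 on Col-0 Pst. On wrky60 it had 61.8 and on Col-0 MgCl2 55.5, both within 2-fold of the double mutant, and on wrky53 31.5.

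AT2G35730, a gene with a heavy-metal-associated domain, had the largest fold over Col-0 Pst among the named members, 4.66. Its signals were 117 on the double mutant array, 20.6 on wrky18, 41.3 on wrky40, 25.1 on Col-0 Pst, 9.00 on wrky53, 28.3 on wrky60 and 5.24 on Col-0 MgCl2. AT3G54150, a methyltransferase family gene, had 159.7 on the double mutant array, against 53.3 on wrky18, 73.5 on wrky40 and 65.2 on Col-0 Pst. With 104 on Col-0 MgCl2, 78.6 on wrky60 and 49.5 on wrky53, it was 1.54-fold above the mock array. AT3G09020, a glycosyltransferase family gene, had 50.5 on the double mutant array, against 20.1 on wrky18, 12.3 on wrky40 and 19.2 on Col-0 Pst, and 11.9 on wrky53, 9.91 on wrky60 and 28.4 on Col-0 MgCl2. AT1G43910, a P-loop ATPase gene, had 81.5 on the double mutant array, against 38.8 on wrky18, 31.8 on wrky40 and 25.1 on Col-0 Pst, and 43.4 on wrky53, 58.6 on wrky60 and 20.4 on Col-0 MgCl2. AT1G43910 was the only named member at least 2-fold above Col-0 Pst on another mutant array, at 2.34-fold on wrky60.

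For the 4 remaining named members no role is stated. AT4G19370 had the largest ratio to the comparators of any named member, 3.30, with 77.9 on the double mutant array, against 11.8 on wrky18, 23.6 on wrky40 and 22.9 on Col-0 Pst. It had 21.8 on wrky53, 1.56 on wrky60 and 22.4 on Col-0 MgCl2. AT5G08240 had 98.1 on the double mutant array, 32.2 to 36.7 on the 3 comparators and 64.6 on the mock array. AT5G22530 had 57.5 on the double mutant array and 15.5 or less on every other. AT1G21520 had 74.0 on the double mutant array, 20.8 to 33.5 on the comparators and 51.3 on the mock array.

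**Figure D2:**
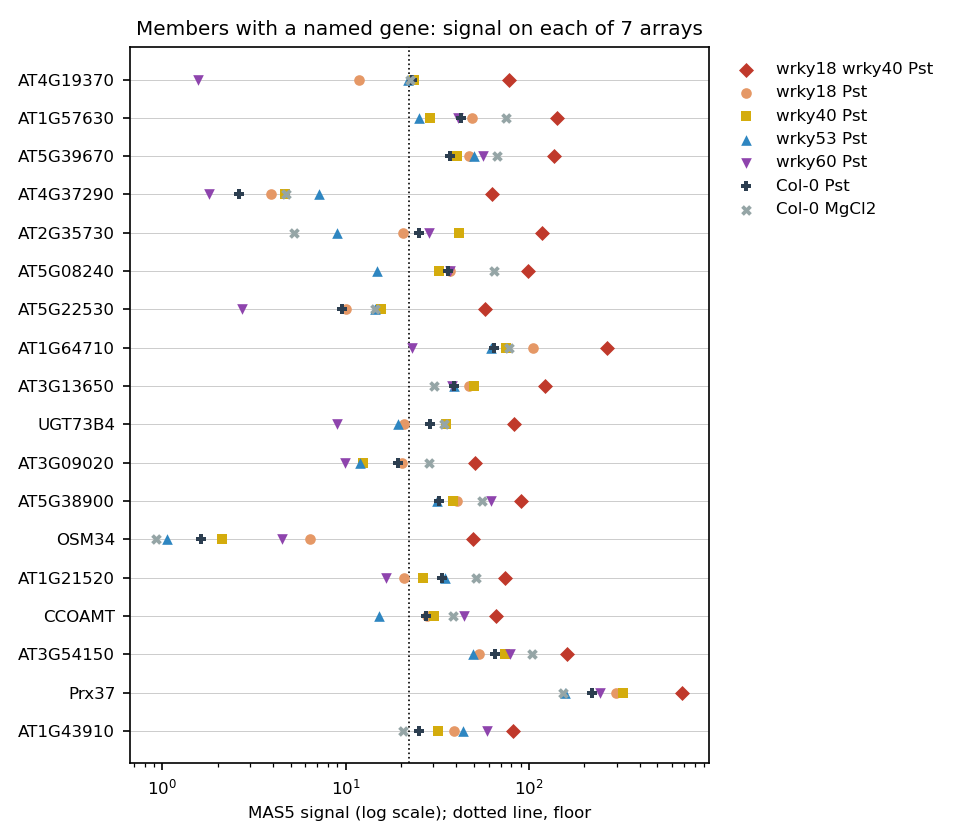
Signals of the 18 named members on each of the 7 arrays, on a log scale, 1 array per group and so without error bars. Genes run down the page by their ratio to the comparators, the dotted line is the floor of 22, and the double mutant array (red diamonds) is the highest for every named gene, from 49.1 for OSM34 to 682 for Prx37.

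The largest ratios belonged to unnamed members. Probe set 267565_at had 263 on the double mutant array, against 53.3 on wrky18, 50.4 on wrky40 and 37.8 on Col-0 Pst. It was 4.95-fold above the highest of them, with 37.8 on wrky53, 50.7 on wrky60 and 57.0 on Col-0 MgCl2. Probe set 250286_at had 106 on the double mutant array and at most 27.7 on the others. Probe set 245976_at had 118 on the double mutant array and 31.7 or less elsewhere. Probe set 261459_at had 102 on the double mutant array, 37.4 on Col-0 MgCl2 and 28.2 or less elsewhere. Against the highest of the 3 comparators, the folds of these 3 probe sets were 4.07, 3.81 and 3.62. Against the highest of all 6 other arrays they were 3.83, 3.74 and 2.72. Probe set 262177_at had 321 on the double mutant array, against 69.6 on wrky18, 103 on wrky40 and 52.8 on Col-0 Pst. Probe set 261763_at had 270.3 on the double mutant array, against 58.5 on wrky18, 89.9 on wrky40 and 53.03 on Col-0 Pst, and 258277_at had 482, against 161, 111 and 102 on the same arrays. The highest signals were those of 247949_at, with 916 on the double mutant array, against 314 on wrky18, 353 on wrky40, 116 on wrky53, 253 on wrky60, 235 on Col-0 Pst and 440.3 on Col-0 MgCl2. A ratio of at least 3 was reached by 7 members, AT4G19370 among them. The ratios of 258277_at and 247949_at, 2.998 and 2.59, lay below 3.

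The single mutants stood slightly above Col-0 Pst for most members. The median log2 ratio to Col-0 Pst was 0.14 for wrky18 and 0.15 for wrky40, against 0.00 for all probe sets on both. Signals were above Col-0 Pst for 37 members on wrky18 and for 43 on wrky40, and for 33 on both, with 14 and 10 members at or below the floor on both arrays of the comparison. Of all 22746 probe sets, 6447 lay above Col-0 Pst on wrky18 and 7015 on wrky40, with 8898 and 8776 below the floor on both arrays. At least 2-fold higher were 0 members on wrky18, where the share of all probe sets was 0.114%, and 1 member, 266995_at, on wrky40, where it was 0.0879%. The rule caps both singles at 0.5 times the double mutant signal, and the Col-0 Pst array enters both ratios, so these values are a description. The highest comparator was wrky40 for 27 members, wrky18 for 20 and Col-0 Pst for 3, the other 10 being below the floor on all 3.

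The double mutant exceeded the sum of the 2 single mutant log2 ratios for all 60 members, as the choice of members favours. The excess had a median of 1.24 on the log2 scale and reached 1 (2-fold) for 47. The rule fixes it at 1 or more for every member except the 33 that lay above Col-0 Pst on both single mutants. These values are therefore a description, and nothing is read from them about how the 2 mutations combine. Prx37 had log2 ratios to Col-0 Pst of 1.63 in the double mutant, 0.44 in wrky18 and 0.55 in wrky40. AT1G64710 had 2.05, 0.70 and 0.22 in the same order. For AT1G57630 the values were 1.73, 0.19 and -0.57.

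**Figure D3:**
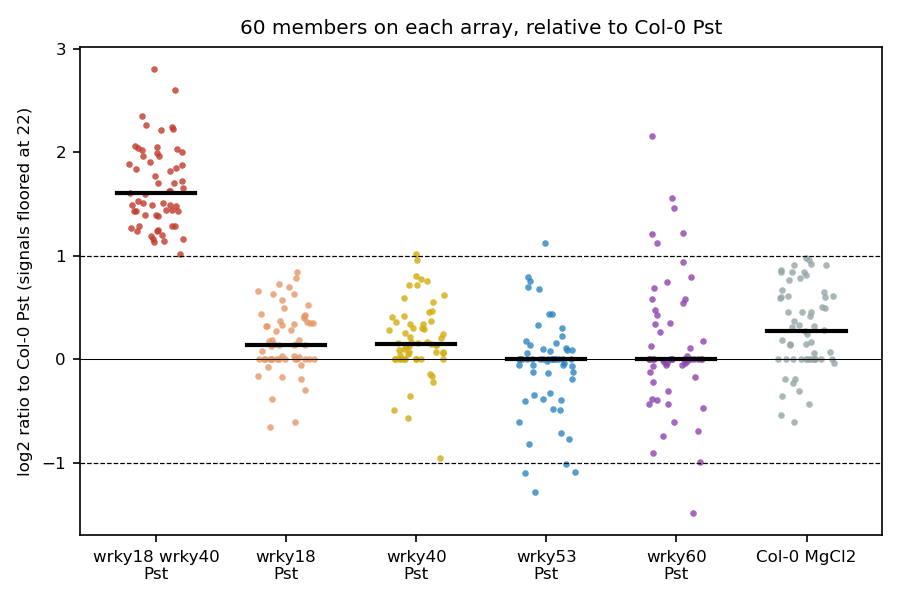
Each point is 1 of the 60 members, as its log2 ratio to the Col-0 Pst array with signals floored at 22, and bars are medians over members. The first 3 columns and the mock column, which is Col-0 MgCl2 over Col-0 Pst, are those the rule used. The rule did not use the wrky53 and wrky60 arrays, but it did use the Col-0 Pst array to which their columns are compared. Those columns centre on 0.00, with 4 members at or below -1 on wrky53 and 6 at or above 1 on wrky60.

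The wrky53 array, which the rule did not use, did not share the raised signals. The median log2 ratio of the members to Col-0 Pst was 0.00, as over all probe sets, with 21 members above, 25 below and 14 below the floor on both arrays. Of all 22746 probe sets, 7562 lay above, 6292 below and 8892 below the floor on both. Without those below the floor on both arrays, the median was -0.04 for members and 0.03 for all probe sets. At least 2-fold higher was 1 member (1.67%), against 0.158% of all probe sets, and at least 2-fold lower were 4 (6.67%), against 0.497%. Counting only the 13854 probe sets at or above the floor on either array, the shares of all probe sets were 0.260% and 0.816%. The rule did use the Col-0 Pst array, which enters each of these ratios, and favours members that read low on it. The member shares are therefore a description. The double mutant was at least 2-fold higher than wrky53 for 58 of the 60, where 1.97% of all probe sets were, but the rule fixed the double mutant side of that ratio. The 2 exceptions, identified after their values were seen, were AT1G43910, with 81.5 on the double mutant array and 43.4 on wrky53, and 251705_at, with 235 and 136.

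The higher member in wrky53 was 251705_at, whose signal there was 136, against 62.8 on Col-0 Pst and 86.1 on Col-0 MgCl2. It had 146 on wrky60 too, and 32.5 on wrky40, so both mutant arrays that the rule left out lay above Col-0 Pst. The 4 lower members were 247949_at, 246927_s_at, 263536_at and 247205_at. Their wrky53 signals were 116, 38.2, 24.996 and 2.83, against 235, 92.8, 53.6 and 46.8 on Col-0 Pst. On the Col-0 MgCl2 array the same 4 read 440.3, 176, 105 and 71.3, above Col-0 Pst in each case. All 4 were therefore high in the mock, intermediate in infected Col-0 and low in infected wrky53. The last step is how they were picked, and 247205_at lay below the floor on wrky53. Genes that are not members showed the same order, as did BIK1 and PUB22 below, while BSMT1 and GRX480 did not.

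On the wrky60 array the members also centred on Col-0 Pst, with a median log2 ratio of 0.00 and 22 above, 23 below and 15 below the floor on both arrays. Of all 22746 probe sets, 9060 lay above, 7013 below and 6673 below the floor on both. The Col-0 Pst array, which the rule used, again enters these ratios. At least 2-fold higher were 6 members (10.0%), against 6.12% of all probe sets, and 1 (1.67%) was at least 2-fold lower, against 2.54%. With median scaling the counts were 3 higher and 4 lower, and with a floor of 11 they were 7 higher and 8 lower, so the balance of directions depended on the scale. With the control signals of that array given above, their part in these counts was not tested. The 6 were 251705_at, 252131_at, 251336_at, 252334_at, 267546_at and AT1G43910. For 267546_at the wrky60 signal of 97.8 exceeded the 59.3 of the double mutant, the only member for which another array was the highest. The lower member was AT1G64710, with 23.0 on wrky60, against 64.2 on Col-0 Pst.

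Over all 7 arrays, the double mutant was the highest for 59 of the 60 members, and for 60 without the wrky60 array. The share of all probe sets was 7.21%, but nothing can be read from that contrast, since the rule places the double mutant above infected Col-0, both single mutants and the mock, and leaves only wrky53 and wrky60 free. It was at least 2-fold above each of the 6 other arrays for 37 members, or 43 without wrky60. In all, 40 probe sets (0.176%) were, and the rule fixed this for 3 of the 6 arrays. Of the 23 members that were not, the mock array lay within 2-fold of the double mutant for 15, wrky60 for 12 and wrky53 for 2, with some in more than 1 of these groups. The word only in a description of these genes thus holds against infected Col-0 and the 2 single mutants, and for 37 of the 60 against every array.

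The rule limits the ratio of infected Col-0 to the mock, and its fold limit favours probe sets that read low on the Col-0 Pst array, so the direction of this ratio is a description only. On the Col-0 Pst array 39 members lay below the Col-0 MgCl2 array, 10 above it and 11 were below the floor on both. The median log2 ratio was -0.28, against 0.00 over all probe sets, of which 6830 (30%) lay below the mock and 7046 (31%) above. For 19 members the mock signal was at least 1.5 times that of infected Col-0. The share of all probe sets at that limit was not counted, so nothing is read from this number.

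Against the mock, the infected double mutant had a median log2 ratio of 1.28 over the members. The fold and mock limits together place it above the mock for every member, so that all 60 were higher is fixed by the rule. At least 2-fold higher were 45 (75%), where 1.89% of all probe sets were, and nothing is read from that difference because the rule used both arrays. With a floor of 44 the count was 28. Among named members the fold was at least 5.31 for AT2G35730 and at least 3.70 for AT1G43910, whose mock signals lay below the floor, 4.48 for Prx37 and 4.04 for AT3G13650. The smallest were 1.44 for AT1G21520, 1.52 for AT5G08240 and 1.54 for AT3G54150. In these last 3 the mock array was the next highest. Infected double mutant plants thus exceeded mock-treated Col-0 plants by less than 2-fold, and infected Col-0 lay below both. Genotype and treatment both differ between the infected double mutant and the mock. Without a mock-treated double mutant, their parts in these folds cannot be told apart.

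**Figure D4:**
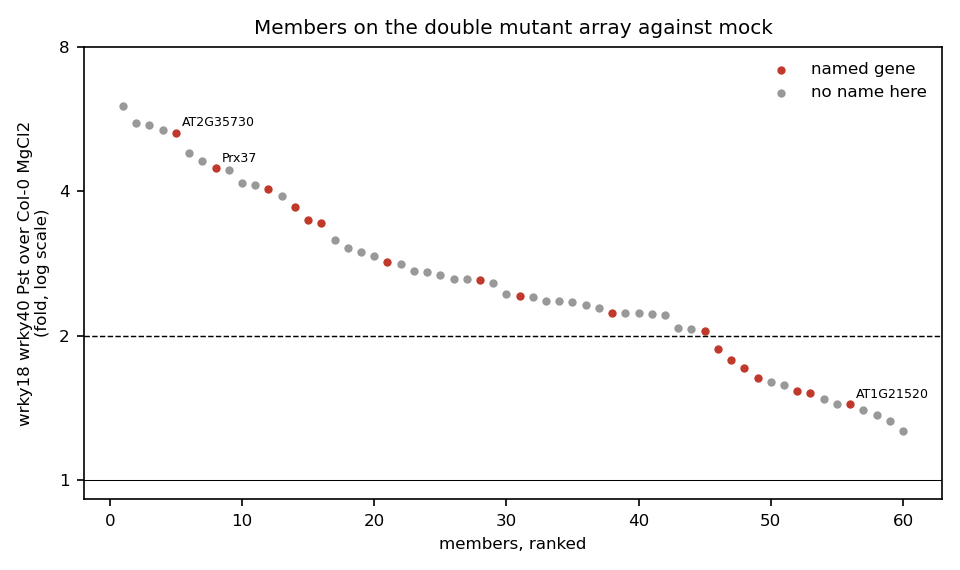
The 60 members are ranked by the fold of the infected double mutant over mock-treated Col-0, on a log scale with signals floored at 22. The dashed line marks 2-fold, above which lie 45 members, 11 of the 18 named genes (red) among them, with AT2G35730 the highest plotted named gene, at a lower bound of 5.31.

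The 18 named genes were spread over all chromosomes, with 5 on chromosome 1, 2 on chromosome 2, 3 on chromosome 3, 4 on chromosome 4 and 4 on chromosome 5. None was within 2 places of another in the order of protein-coding genes in the TAIR10.1 gene table. Genes 1 or 2 places from a member had 37 named probe sets, of which 0 were members. Of the 37, 4 had at least 2-fold higher signals in the double mutant than in Col-0 Pst, against 0.954% of all probe sets. At or above the floor on either array were 25 of the 37, these 4 among them, and the other 21 lay within 2-fold. The share over all such probe sets was 1.57%. Both shares among the neighbours were thus larger than over all probe sets, and the difference was not tested. The 4 were named after their values were seen.

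UGT73B5, next to UGT73B4 and of the same glycosyltransferase family, had 83.2 on the double mutant array, against 31.9 on wrky18, 40.2 on wrky40 and 31.3 on Col-0 Pst. It passed the fold limit at 2.07 but had 69.5 on Col-0 MgCl2, outside the mock limit. AT4G08780, the peroxidase gene next to Prx37, had 107 on the double mutant array, against 34.9 on wrky18, 60.4 on wrky40, 34.4 on Col-0 Pst and 16.7 on Col-0 MgCl2. Neighbours in such tandem pairs have similar sequences, and whether their probes bind both transcripts was not tested. AT3G09010 next to AT3G09020 and AT5G38890 near AT5G38900 were 2.19-fold and 2.24-fold above Col-0 Pst but 1.54-fold and 1.13-fold above the highest comparator.

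**Figure D5:**
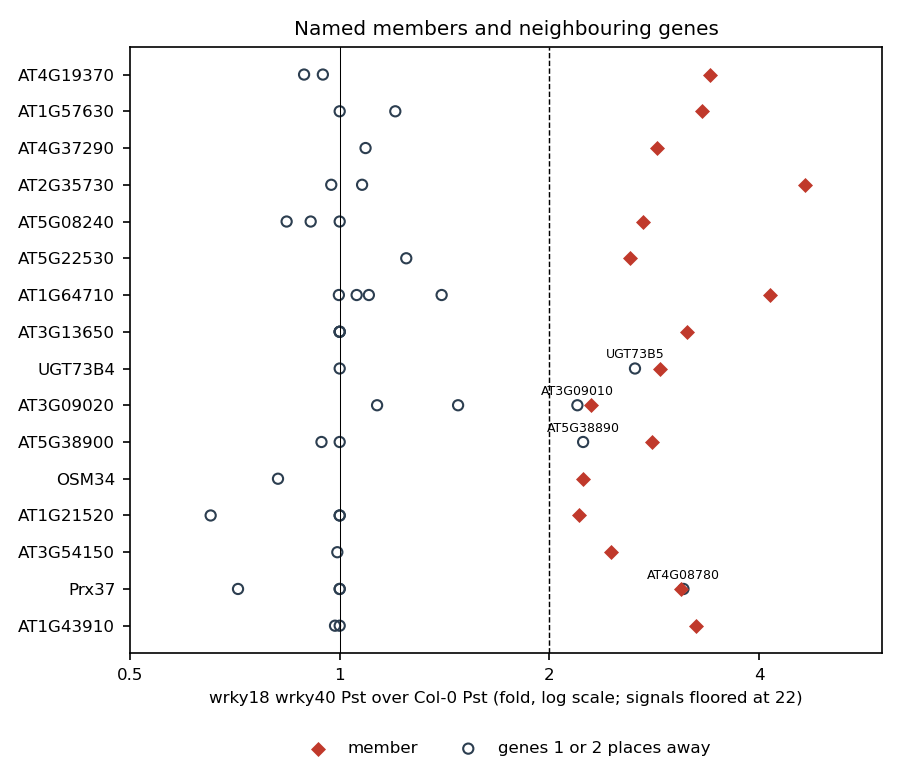
For 16 named members, the fold of the double mutant over Col-0 Pst (log scale, signals floored at 22) is shown for the member (red diamond) and for genes 1 or 2 places away that have a named probe set (rings). Most rings lie near 1, several of them below the floor on both arrays, and 4 lie beyond the dashed 2-fold line.

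The wider pathways were read through 10 lists of 177 genes, of which 33 could be matched to a named probe set and 28 of those reached the floor in the double mutant or in Col-0 Pst. At least 2-fold higher in the double mutant were 9 of the 28 (32.1%), where 1.57% of measured probe sets were, and 0 were at least 2-fold lower. Only AT1G57630 and AT5G39670 were members. Nothing can be read from that difference, since the lists were chosen with earlier results of these data known and several hold genes of plant immunity. With log2 of signal plus 22 in place of the floor the count was 4.

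Calcium sensors were higher for 3 of 5 measured genes, with a median log2 ratio to Col-0 Pst of 1.16. Beside AT5G39670, AT3G47480 had 87.7 on the double mutant array, against 58.4 on wrky18, 28.4 on wrky40 and 37.7 on Col-0 Pst, and CML38 had 92.6, against 25.02, 49.1 and 41.4. Neither reached 2-fold above the highest comparator, and on Col-0 MgCl2 AT3G47480 had 66.4 and CML38 42.4. In the list of TIR and NBS-LRR receptors 1 of 2 measured genes was higher, AT1G57630. The other, AT1G66090, had 42.4 on the double mutant array, against 28.5 on wrky18, 25.8 on wrky40 and 21.6 on Col-0 Pst. Its highest array was Col-0 MgCl2, at 59.5, at least 2.71 times Col-0 Pst and outside the mock limits.

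In the jasmonate list 2 of 3 were at least 2-fold higher, PDF1.2 and PDF1.2b, at 2.07 and 2.85 times Col-0 Pst. Against the highest comparator they were only 1.49-fold and 1.69-fold higher, short of the fold limit. Their mock signals were 0.198 and 0.160 times Col-0 Pst, outside the mock limits too. The camalexin list had 1 measured gene, AT1G26380, past the fold limit at 3.83 but with a mock signal 4.10 times that of Col-0 Pst. Among glutathione and glycosyl transferases 1 of 3 was higher, UGT73B5. That list leaves out UGT73B4, a member at 2.88 times Col-0 Pst. In the senescence list it was 1 of 2, WRKY6, with 240.2 on the double mutant array, against 130.1 on wrky18, 149.0 on wrky40 and 110.2 on Col-0 Pst. WRKY6 had 189 on Col-0 MgCl2. The salicylic acid list had 0 of 3, pattern-triggered immunity 0 of 6, with a median of 0.50 and all 6 above Col-0 Pst, and the photosynthesis list 0 of 3, with a median of -0.36. BIK1, a kinase that relays signals from pattern receptors, had 355 on the double mutant array, against 303 on wrky18, 283 on wrky40 and 234 on Col-0 Pst. The ubiquitin ligase gene PUB22 had 422 on the double mutant array, against 364 on wrky18, 284 on wrky40 and 292 on Col-0 Pst. On the mock array BIK1 had 412 and PUB22 552, above the double mutant, and on wrky53 they had 149 and 88.4, below Col-0 Pst. In the salicylic acid list, BSMT1, a methyltransferase gene, had 99.3 on the double mutant array, against 71.2 on wrky18, 74.3 on wrky40, 210.4 on wrky53, 224 on wrky60 and 101 on Col-0 Pst. GRX480, a glutaredoxin gene, had 102 on the double mutant array, against 85.8 on wrky18, 90.6 on wrky40, 114 on wrky53, 151 on wrky60 and 78.7 on Col-0 Pst. The double mutant was thus the highest array for none of these 4 genes.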

How the data were processed

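RNA from 7 rosette samples was hybridised to 1-colour arrays, 1 array per group. Per the labels, genotypes came from source names and treatments from titles. The deposited intensities are linear signals. The submitters' processing notes name MAS5, with no version among the sources used here. The 2% trimmed mean of each array was 100 (100.01), so the intensities were used without further scaling. Of 22810 probe sets, 64 were controls. Signals below 22 were set to 22 before ratios and log2. Probe sets were named through the platform annotation and the TAIR10.1 gene table where they had 1 gene. With 1 array per group no test was run. The selection code was tested on simulated data. These had large planted folds at signals well above the floor, so the test checked the code alone. It did not cover low signals or ratios close to the limit, where most members lay. Precision is limited by having 7 arrays and by low signals.

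The members and gene lists were chosen with earlier results of these data known. Any member with 1 named gene could be named, with the 16 members of largest ratio, those at least 2-fold from Col-0 Pst on wrky53 or wrky60, 4 members just inside and 4 named probe sets just outside the fold limit, the targeted genes, and up to 4 genes per list, highest mean signal first. Others, including those just outside the mock limit, were named after their values were seen. Planned promoter motif counts were not run, since no sequences were used here, and none is printed. Python 3.11.15, pandas 2.3.3, numpy 2.4.6, R 4.3.3 and limma 3.58.1 were used. Alternatives were other floors, scalings, fold and mock limits.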

Additional observations from a re-analysis of the deposited data

Results flagged for a closer look

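On the wrky60 array the 18 bacterial control probe sets, which belong to no gene of the plant, had a median signal of 1069, against 142 on the Col-0 Pst array, and a median fold of 6.95 over it. This control signal, above that of the wild type, singled out the array.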

How the results depend on the processing

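No paired analysis was possible because each group has 1 array and no test was run. The number of members, 60, was 55 with quantile normalization, 63 with median scaling, 64 with cyclic loess and 74 with a floor of 11, and 55, 60, 60 and 54 of the original members were among these. It was 37 with a floor of 44, all of them original members, and 33 with log2 of signal plus 22 and no floor, 30 of them original. It was 220 with a 1.5-fold limit, 7 with a 3-fold limit, 79 with no mock limit, 40 with a mock ratio within 1.5-fold, and 18 with 1 probe set per named gene. Those 18 named genes gave 11 at least 2-fold above the mock, 18 highest on the double mutant array, 10 at least 2-fold above the 6 other arrays, 0 higher and 0 lower on wrky53, and 1 higher on wrky60. With the floor of 44, 28 members were 2-fold above the mock, 24 above all other arrays, 2 lower on wrky53, and 3 higher and 0 lower on wrky60. With log2 of signal plus 22, 23 were above all other arrays, 0 higher and 1 lower on wrky53, 2 higher on wrky60, and 4 list genes, in place of 9, were 2-fold higher on the double mutant. With the floor of 11, 2 were higher and 7 lower on wrky53 and 8 lower on wrky60. On wrky60, 2 were lower with quantile normalization, 2 with cyclic loess and 4 with median scaling, which also gave 3 higher. Leaving out the wrky60 array was chosen after seeing the data. The cause of these shifts was not tested, apart from the fewer genes behind the 18. The members' medians moved by under 1.5-fold under all alternatives run. Of 108 recomputed log2 ratios of named members, 108 were above 0, 96 were at least 1, and 14 moved by 1.5-fold or more, all under another floor or the added 22.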

Other observations

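Among genes just short of the limits, AT1G72920 had 129 on the double mutant array, 1.93 times the highest of the 3 comparators, and a mock signal 0.685 times that of Col-0 Pst. AT5G20400 had 178 and AT5G28630 50.7 on the double mutant array, at 2.39 and at least 2.30 times the comparators, with mock signals at 2.11 times Col-0 Pst and at least 2.13 times it.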
